A study of Mus musculus with 36 samples.

Results

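This account follows 44 autosomal genes of the mouse that are known to be imprinted, through 6 tables of RNA counts from germ cells, embryos and grown tissues. The members were taken as a fixed list of gene symbols, each symbol was matched to 1 Ensembl gene identifier, and all 44 were found among the 51413 genes listed in every table. The rule itself uses no measured value, but the members were chosen with earlier results of these data known. By common knowledge 25 of them were listed as read mainly from the paternal allele and 16 mainly from the maternal allele. The other 3 (Grb10, Gnas and Ddc) were listed under an allele that depends on the isoform or the tissue. These classes are nominal, as a listed member may be imprinted in some tissues only, such as Ube3a in neurons. Whether a member is imprinted in the cells measured here was not tested. The counts carry no allele information, so that every value below is the sum over both alleles.

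All animals were wild-type C57BL/6 mice in the labels, of the substrain C57BL/6N by the study's methods. Males were given a high-fat diet (HFD, 60% of energy as fat) or a low-fat diet (LFD, 10%) for 2 weeks from 6 weeks of age. Swim-up sperm of the cauda epididymis was sequenced from 3 HFD and 3 LFD samples, and so were morulae made by in vitro fertilization with sperm of 3 HFD and 3 LFD samples and oocytes of females on neither diet, after 72 h of culture. Round spermatids, the haploid cells before elongation, were purified on a density gradient from testes of fed males (6 libraries, 3 of each diet). Liver, epididymal white adipose tissue (eWAT) and gastrocnemius muscle came from chow-fed sons of HFD fathers, 6 libraries each, and these sons were either tolerant or intolerant of glucose. The columns of the round spermatids and of the grown tissues name no diet or tolerance group, so those libraries were only described tissue by tissue and are named by their total count. For 3 morula samples, 1 label field gave the other diet than the title and the treatment field, and the title and treatment were followed.

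Genomic imprinting marks the paternal and maternal copies of a gene differently, in most cases by DNA methylation laid down in the germ line. The embryo then reads mostly a single copy. The methylation marks sit at imprinting control regions, each of which governs a cluster of neighbouring genes. Many clusters hold growth promoters read from the paternal copy and growth restrainers read from the maternal copy. After fertilization the marks are held through the general loss of methylation by ZFP57, a zinc finger protein that reads a methylated TGCCGC, together with its partner TRIM28 and the maintenance enzyme DNMT1. Many imprinted genes are high in the fetus and placenta and fall after birth.

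Promoter sequences are shown for 3 members whose RNA marked eWAT among the grown tissues. Each is the 250 bases before a RefSeq transcript start (GRCm38.p6), 5′ to 3′ on the strand of the gene, and capitals mark TGCCGC read on either strand (GCGGCA is the other strand). Mest lies here at chr6:30737800-30738049, Plagl1 at chr10:13090582-13090831 and Nnat at chr2:157559828-157560077, all on the plus strand.

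Mest: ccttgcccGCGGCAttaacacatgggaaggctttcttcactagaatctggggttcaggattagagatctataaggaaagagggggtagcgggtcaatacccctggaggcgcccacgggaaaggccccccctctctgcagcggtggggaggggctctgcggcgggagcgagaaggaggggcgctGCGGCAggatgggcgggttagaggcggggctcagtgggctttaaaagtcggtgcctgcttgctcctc

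Plagl1: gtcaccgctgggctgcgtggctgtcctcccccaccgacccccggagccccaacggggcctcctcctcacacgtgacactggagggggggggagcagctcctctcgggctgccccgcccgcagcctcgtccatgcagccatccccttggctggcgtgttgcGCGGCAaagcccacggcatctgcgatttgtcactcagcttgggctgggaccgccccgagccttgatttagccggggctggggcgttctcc

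Nnat: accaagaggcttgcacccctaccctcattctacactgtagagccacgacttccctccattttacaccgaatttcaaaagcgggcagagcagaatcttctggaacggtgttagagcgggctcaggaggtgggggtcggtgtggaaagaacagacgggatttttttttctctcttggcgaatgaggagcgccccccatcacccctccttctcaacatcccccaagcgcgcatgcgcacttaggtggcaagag

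The Mest window held 2 matches, the Plagl1 window 1 and the Nnat window 0. RefSeq entries were at hand for 37 of the 44 members, with 58 windows, and 8 of these windows (13.8%), from 7 members, held the motif (Mest, Plagl1, Calcr, Mcts2, Meg3, Nap1l5 and Zim1). Of all 32851 windows of the same length 8.68% held it. A match is a description of letters and not a measured binding site.

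The libraries differed in depth and kind. Sperm libraries held 2560219 to 4062321 counts, morulae 11471251 to 12153141, round spermatids 20138842 to 31056066, liver 2036237 to 2552454, eWAT 1338149 to 4055537 and gastrocnemius 369772 to 2749920. Counts were scaled by TMM (the trimmed mean of M-values, a factor that centres the bulk of genes) and given as CPM, a share of the scaled library total. The germ cell and embryo libraries cover whole transcripts, so there levels of different genes were compared per kilobase of the deposited gene length. The grown tissues were sequenced as 3′ tags and were not set against the other tables. The defining markers of each labelled tissue were all detected in its libraries, but the sperm libraries also held epididymal epithelium markers (1987 to 9685 summed CPM) and leukocyte markers (578 to 1510 summed CPM). By the study's methods the sperm pellets were treated with a mild detergent that lyses somatic cells, and samples with somatic cells visible under the microscope were not used. The part of such markers in the sperm values was not tested. In such bulk samples fewer cells of a type and less RNA per cell cannot be told apart.

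**Figure D1:**
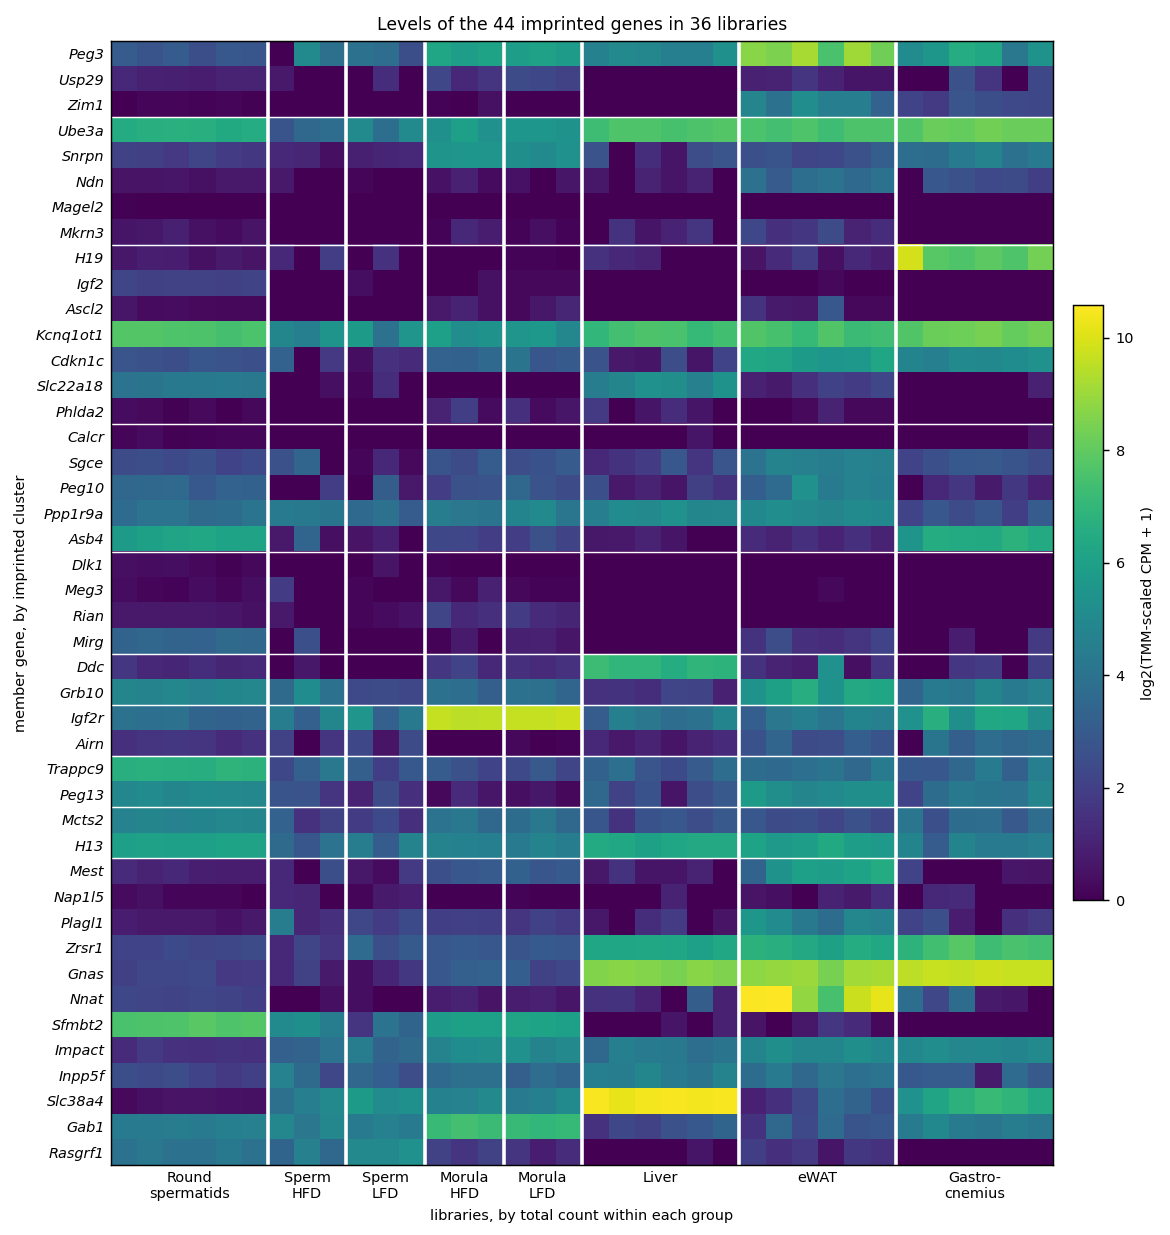
Level of each of the 44 imprinted genes (rows, by cluster, with the single genes at the bottom) in each of the 36 libraries (columns, ordered by total count within each group), as log2 of TMM-scaled CPM plus 1. Igf2r stood out in morulae, Slc38a4 in liver, Nnat in eWAT and H19 in gastrocnemius, while Magel2, Calcr, Dlk1 and Nap1l5 were near 0 throughout.

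Round spermatids held a count for all 44 members, with 14 of them at a median of at least 10 CPM. The same libraries held markers of spermatocytes (496 to 580 summed CPM) and of Sertoli and Leydig cells (50.1 to 98.9). The part of such cells in the member values was not tested. The highest level per kilobase belonged to Mcts2, a translation factor gene that arose as a retrocopy inside H13, at 27.3, 29.1 and 31.1 CPM per kilobase (lowest, median and highest of 6 libraries). Sfmbt2, a Polycomb protein gene, lay at 20.5, 22.2 and 25.7. Asb4, a subunit of ubiquitin ligases, lay at 13.8, 17.5 and 19.9 CPM per kilobase. Trappc9, a vesicle tethering factor, lay at 15.1, 16.2 and 18.3, so that the ranges of Asb4 and Trappc9 overlapped. These 4 genes include members listed as paternally read and members listed as maternally read. Mcts2 has a near-identical parent gene on the X chromosome and lies inside H13, and the counting may have split or shared their reads.

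Several genes well known from imprinting studies were low in round spermatids, but not all. Ube3a, for example, lay at 4.19 to 5.07 CPM per kilobase. H19, the maternally read noncoding RNA, had a median of 0.279 CPM per kilobase, and its neighbour Igf2, the fetal growth factor, 0.551. Mest, a hydrolase-like protein of growing tissues, had 0.244, Peg3, a zinc finger protein, 0.469, and Snrpn, a splicing protein, 1.29 CPM per kilobase. Grb10, an inhibitor of insulin receptor signalling, reached 3.02 and Cdkn1c, a brake on the cell cycle, 2.62, with Gnas, the stimulatory G protein subunit, at 0.304. Dlk1, a fetal antagonist of fat cell formation, had 31 counts in all 6 libraries together, and so did Meg3, the noncoding RNA of the same cluster. Mirg, a further noncoding RNA of that cluster, reached 1.33 CPM per kilobase in the same cells. Magel2 had a single count in the 6 libraries.

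Sperm held a count for 38 of the 44 members, 19 of them in every library. Zim1, Calcr, Magel2, Mkrn3, Phlda2 and Ascl2 were at 0 in all 6 sperm libraries. Slc38a4, an amino acid transporter, had the highest median, 7.45 CPM per kilobase, with 3.33, 5.19 and 7.10 in the HFD and 12.6, 7.80 and 9.13 in the LFD libraries. Gab1, an adaptor of growth factor receptors, followed at a median of 4.41, ranging from 3.39 to 5.72. Round spermatids held only 4 to 12 counts of Slc38a4 per library (0.0488 to 0.122 CPM per kilobase). The cells of origin of the Slc38a4 RNA in the sperm libraries were not tested. Mcts2 had a median of 3.11 CPM per kilobase from only 69 counts in all, and Rasgrf1, a Ras activator that is methylated on the paternal copy, 2.44. Igf2 and Dlk1 had 2 counts each over the 6 libraries, H19 had 18 and Meg3 had 5. Mest (33 counts), Snrpn (22), Cdkn1c (38) and Gnas (27) were sparsely counted, and Peg3 had 267 counts, but none in 1 HFD library.

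Diet was compared in sperm, where the question is whether the RNA of sperm carries the father's diet. No member passed the adjusted threshold of 0.05 in edgeR's quasi-likelihood test among the 17 members with enough counts to test, and the share called over all 8643 genes tested was 0%. The largest rise was that of Grb10, and the deepest drop that of Zrsr1, a splicing factor gene with a parent copy on the X chromosome. At an unadjusted p under 0.05 there were 4 members of 17, 2 higher and 2 lower on HFD, beside 13% of all genes tested (8.33% higher, 4.65% lower). The 3 libraries of each diet did not overlap for 7 of the 17 members (Grb10, Sfmbt2 and Ppp1r9a higher, Zrsr1, Ube3a, Rasgrf1 and Slc38a4 lower on HFD), and for 20.4% of all genes (8.1% higher, 12.3% lower). DESeq2 called 1 member (Grb10) and 286 genes at an adjusted p under 0.05.

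Grb10 stood at 11.6, 34.4 and 14.4 CPM in the HFD and at 4.09, 4.52 and 3.79 CPM in the LFD libraries. Each HFD library lay above each LFD library. The log2 fold change of HFD over LFD was 2.27 ± 0.67 (SE, n = 3 per diet), with an adjusted p of 0.232 in edgeR and of 0.0159 in DESeq2. Sfmbt2 stood at 32.9, 37.5 and 21.7 CPM on HFD and at 2.12, 15.4 and 9.68 on LFD, a log2 fold change of 1.76 ± 0.68 (edgeR, adjusted p = 0.292). Again the groups did not overlap, with 1 LFD library far below the other 2. Plagl1, a zinc finger regulator of fetal growth, had 20.7 CPM in a single HFD library and 1.23 to 4.21 CPM in the other 5. Without that library its log2 fold change went from 1.10 to -1.25.

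The members that were lower on HFD were measured at a similar precision. Zrsr1 had 1.29, 3.69 and 2.06 CPM on HFD and 12, 4.75 and 6.94 on LFD, with a log2 fold change of -1.74 ± 0.87 (edgeR, adjusted p = 0.423). Ube3a, a ubiquitin ligase that is maternally read in neurons, had 5.81, 11.1 and 12.7 CPM on HFD and 32.2, 13.1 and 32.2 on LFD, a log2 fold change of -1.37 ± 0.60 (edgeR, adjusted p = 0.348). Its lowest LFD library lay just above its highest HFD library. Rasgrf1 had 9.69, 23.3 and 10.7 CPM on HFD and 31.0, 30.7 and 39.6 on LFD, a log2 fold change of -1.22 ± 0.54 (edgeR, adjusted p = 0.356). The other 11 tested members had log2 fold changes from -0.91 (Slc38a4) to 0.81 (Inpp5f, a phosphoinositide phosphatase).

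The libraries of the 2 diets also differed in make-up, and this bears on every sperm value. Transcripts of mitochondrial DNA took 78.1% to 84.3% of counts on HFD and 43.5% to 64.7% on LFD. As TMM-scaled CPM, markers of late spermatids and spermatozoa summed to 4185 to 12340 on HFD and 1037 to 3679 on LFD. Erythroid markers summed to 167 to 347 on HFD and 10.3 to 94.0 on LFD. Leukocyte markers overlapped between the diets (578 to 1105 and 1020 to 1510), as did epididymal epithelium markers (3682 to 4029 and 1987 to 9685). The largest TMM factor of an HFD library was 0.716, and the smallest of an LFD library was 1.52. Such scaling raises the HFD sums relative to the LFD sums. Whether the ranges stay apart with library totals was not tested. With library totals in place of TMM the median of all genes moved from a log2 fold change of -0.07 to -1.82. The drops of Zrsr1, Ube3a and Rasgrf1 were then called (log2 fold change -3.64, -3.15 and -3.03, edgeR adjusted p = 0.0157, 0.0131 and 0.0131), as were 37.8% of all genes, and Grb10 fell to 0.44 ± 0.84 and Sfmbt2 to 0.16 ± 0.74. Relative to that shifted median Grb10 and Sfmbt2 stayed above and the 3 others below the bulk of genes. A change of scaling moves all genes of a library by the same factor, so this could hardly come out otherwise.

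Morulae held a count for 41 members, 33 of them in every library. Igf2r, the receptor that clears IGF2 and is read from the maternal copy in most tissues, led at 87.3, 79.1 and 82.4 CPM per kilobase with HFD fathers and 87.3, 87.2 and 95.2 with LFD fathers. Its antisense partner Airn, the paternally read noncoding RNA that overlaps Igf2r (chr17:12741311-12860136 against chr17:12682406-12769664), had 3 counts in the 6 libraries. Gab1 followed at a median of 28.0, Snrpn at 19.3 and Mcts2 at 15.4 CPM per kilobase. Peg3 had 4.62, Cdkn1c 4.39, Mest 1.67, Grb10 1.5 and Gnas 0.623 CPM per kilobase at the median. H19 had 2 counts, Igf2 11, Dlk1 1 and Meg3 25 in the 6 libraries together, while Magel2, Calcr and Slc22a18 were at 0.

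None of the 28 members tested in morulae passed the adjusted threshold in edgeR, the share called over all 13447 genes being 0%, and none had an unadjusted p under 0.05, beside 6.38% of all genes (3.55% higher, 2.83% lower). DESeq2 called no member and 9 genes, and gave 1 member (Ppp1r9a, a scaffold of dendritic spines) an unadjusted p under 0.05. The median log2 fold change was 0.10 over the tested members and 0.01 over all genes. The paternal diet groups did not overlap for 2 members, Snrpn and Gab1, both higher with HFD fathers, against 12.1% of all genes (5.94% higher, 6.17% lower). Snrpn had 43.5, 45.7 and 44.8 CPM with HFD fathers and 38.0, 31.3 and 39.9 with LFD fathers, a log2 fold change of 0.29 ± 0.14 (edgeR, adjusted p = 0.769, n = 3 per diet). For Igf2r the log2 fold change was -0.12 ± 0.08, and the diet groups overlapped.

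The members with the widest changes in morulae had 77 (Phlda2) to 1529 (Ppp1r9a) counts over the 6 libraries. Rasgrf1 had 3.20, 2.03 and 3.09 CPM with HFD fathers and 2.13, 0.772 and 1.55 with LFD fathers (log2 fold change 0.90 ± 0.54, edgeR adjusted p = 0.842), and the difference from its value in sperm was not tested. Phlda2, a restrainer of placental growth, had 1.01, 2.91 and 0.238 CPM against 1.68, 0.257 and 0.570, and its log2 fold change of 0.72 ± 0.89 became -0.42 without the highest HFD library. Gnas had 6.31, 8.56 and 8.97 CPM against 7.89, 3.26 and 3.75. Among the lower members Usp29, a deubiquitinase, had 3.79, 1.32 and 2.14 CPM with HFD fathers and 4.52, 3.95 and 3.26 with LFD fathers (log2 fold change -0.69 ± 0.46). Peg10, a retrotransposon-derived placental gene, had 2.78, 5.21 and 5.55 against 10.6, 5.57 and 4.4 (-0.60 ± 0.40), and Ppp1r9a 21.2, 17.3 and 15.9 against 26.7, 32.2 and 16.6 (-0.47 ± 0.23). In each of these 6 genes at least 1 library of a diet lay within the range of the other.

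**Figure D2:**
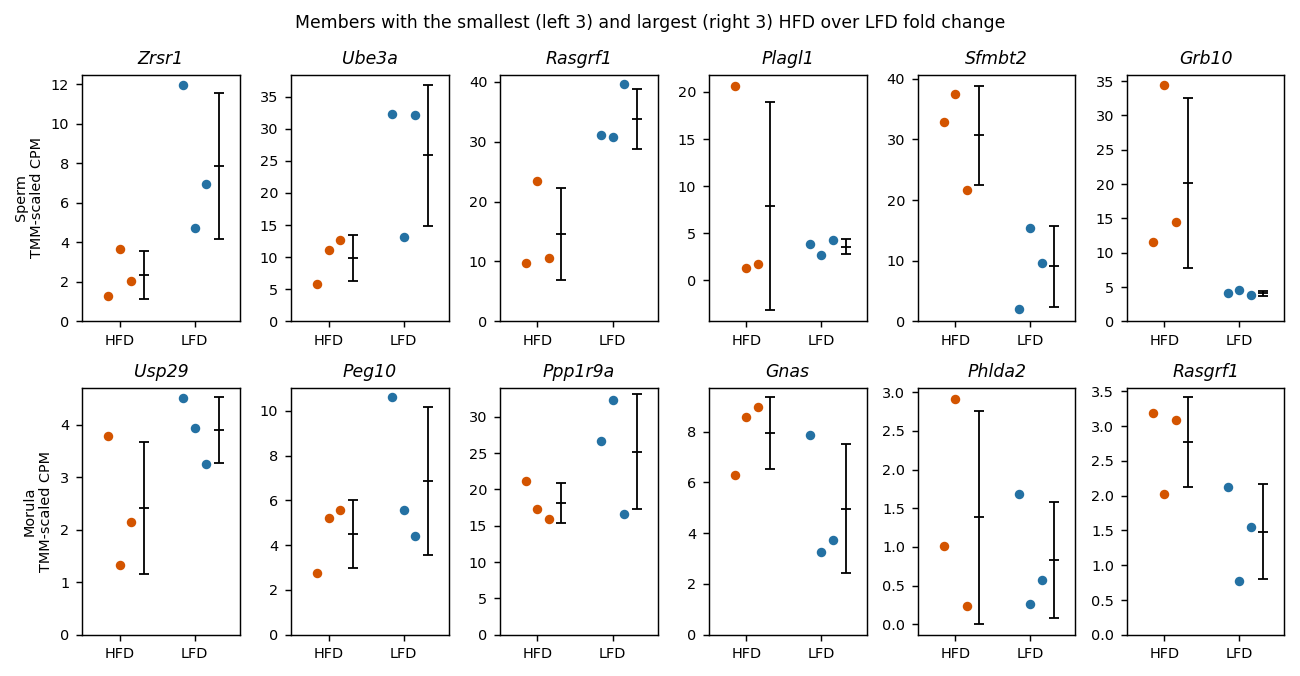
TMM-scaled CPM of the 3 members with the smallest and the 3 with the largest HFD over LFD fold change in sperm (upper row) and morulae (lower row). Each dot is 1 library, the bar at the right of each group its mean with the SD (n = 3), and axes differ between panels. Grb10 in sperm stood at 11.6 to 34.4 CPM on HFD against 3.79 to 4.52 on LFD, while Plagl1 rested on 1 library and the morula groups overlapped.

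RNAs of genes whose proteins hold the imprints were measured in the same libraries, here in CPM not divided by gene length. In morulae Trim28 lay at a median of 280 CPM, Dnmt1 at 66.5 and Zfp57 at 11.3, and Dppa3, which shields the maternal genome from demethylation, at 2750 CPM. Round spermatids had 400 CPM of Trim28, 51.2 of Dnmt1 and 38.7 of Zfp57. Of the 12 such genes, 6 were tested in sperm and 12 in morulae, and none had an unadjusted p under 0.05 for diet in edgeR. Of the 24 neighbours of imprinted genes that are themselves unlisted here, 6 were tested in sperm and 8 in morulae, with 1 and 0 at an unadjusted p under 0.05.

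In the grown tissues 3 members were called higher in liver than in both other tissues, 10 in eWAT and 6 in gastrocnemius. Of all 10851 genes tested 14.1%, 15.1% and 12.4% were called in these ways. With library totals the members numbered 3, 13 and 2, beside 8.99%, 33% and 6.98% of all genes. Of the 44 members 30 passed the filter on low counts, which a gene high in a single tissue could pass. At an adjusted p under 0.05 and at least a 2-fold change, 20 of the 30 were called between liver and gastrocnemius (6 higher and 14 lower in liver), beside 52.2% of all 10851 genes tested, 28% higher and 24.3% lower. Between liver and eWAT 16 were called (3 higher and 13 lower in liver), beside 44.1% of all genes, 19% higher and 25.1% lower. Between eWAT and gastrocnemius 21 were called (14 higher and 7 lower in eWAT), beside 51.3% of all genes, 33.1% higher and 18.2% lower. The tissue contrasts share their libraries. With library totals the last split became 18 higher and 3 lower, beside 57.2% and 8.05% of all genes, and the median of all genes moved from a log2 fold change of 0.35 to 1.32. Between liver and eWAT it became 3 higher and 21 lower, beside 9.85% and 49.2% of all genes, with the median moving from -0.07 to -1.0.

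In liver Slc38a4 (chr15:96994820-97055956, minus strand) was the highest member, with 1192, 1390 and 1432 CPM (lowest, median, highest). In eWAT it lay at 0.985, 4.37 and 13.1 CPM and in gastrocnemius at 39.8, 98.8 and 142 CPM, so that the 3 tissues did not overlap. The log2 fold change was 7.79 ± 0.44 for liver over eWAT (edgeR, adjusted p = 4.13e-13) and 3.80 ± 0.36 for liver over gastrocnemius (adjusted p = 2.45e-09). Ddc, the enzyme that makes dopamine and serotonin from their amino acid precursors, had 91.7, 122 and 154 CPM in liver against 0 to 2.93 in gastrocnemius and 0.352 to 40.4 in eWAT. Its calls in both liver contrasts were not made by DESeq2. Slc22a18, an organic cation transporter, had 21.6, 31.6 and 41.4 CPM in liver and 0.715 to 3.75 CPM in eWAT, a log2 fold change of 3.71 ± 0.32 (edgeR, adjusted p = 4.85e-10). In gastrocnemius it had 2 counts in all 6 libraries, which put liver 124 times higher (95% counting interval 34.1 to 1029). Both counts lay in the library of 2749920 counts, and without it liver was at least 60.8-fold higher, with 3 counts over the other 5 libraries as the floor. The other abundant members of liver were Gnas at a median of 386, Ube3a at 199 and Kcnq1ot1 at 167 CPM.

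eWAT had 10 members above both other tissues, 8 of them listed as paternally read, with Zim1 and Grb10 as the others. Most members are listed as paternally read in any case (25 of 44), and the parental split was not tested. Nnat, a small membrane protein of neurons and endocrine cells, was the highest, with 179, 1006 and 1534 CPM, against 0 to 7.64 in liver and 0 to 13.3 in gastrocnemius. The log2 fold change was -8.67 ± 0.73 for liver over eWAT and 8.0 ± 0.73 for eWAT over gastrocnemius (edgeR, adjusted p = 4.20e-10 and 2.14e-09). These went to -9.68 without the liver library of 2347546 counts and to 9.22 without the gastrocnemius library of 1775036 counts. Peg3 had 187, 390 and 591 CPM in eWAT, 22.9, 26.7 and 38.9 in liver and 17.7, 44.6 and 93.6 in gastrocnemius, and every eWAT library exceeded every library of the other 2 tissues. Its log2 fold change over gastrocnemius was 2.93 ± 0.32 (edgeR, adjusted p = 3.93e-08). Zim1, the zinc finger gene next to Peg3 that is read from the maternal copy, followed the same order, with 9.05, 22.1 and 35.4 CPM in eWAT, 2.50 to 5.90 in gastrocnemius and 0 counts in liver. Its level in eWAT was at least 78.2-fold higher than in liver, taking 3 counts over the 6 liver libraries as the floor.

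Mest had 9.36, 61.3 and 89.1 CPM in eWAT, 0 to 1.94 in liver and 3 counts in all in gastrocnemius. The log2 fold change of liver over eWAT was -6.16 ± 0.53 (edgeR, adjusted p = 6.36e-10), and eWAT was 162 times higher than gastrocnemius (95% counting interval 55.3 to 786). Grb10 had 40.9, 69.5 and 96.3 CPM in eWAT, 9.95 to 27.9 in gastrocnemius and 0.973 to 3.67 in liver, with log2 fold changes of 1.67 ± 0.25 for eWAT over gastrocnemius (edgeR, adjusted p = 3.10e-06) and -4.86 ± 0.31 for liver over eWAT (adjusted p = 3.81e-12). Plagl1 had 12.6, 26.8 and 47.3 CPM in eWAT and at most 2.62 in liver and 5.01 in gastrocnemius, and its log2 fold change of -4.82 for liver over eWAT went to -5.49 without the liver library of 2279651 counts. Peg10 and Sgce, which share a promoter region on chromosome 6, had medians of 21.3 and 23.2 CPM in eWAT, 1.5 and 2.35 in liver and 1.12 and 5.36 in gastrocnemius. Ndn, a MAGE family protein, had 7.15 to 15.4 CPM in eWAT and at most 6.26 in the other tissues, and Peg13, the noncoding RNA inside Trappc9, 27.2 to 53.2 CPM against at most 26.9. All 10 of these genes were called in eWAT over both other tissues.

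Cdkn1c rose from liver to muscle to fat. Liver had 0.509, 2.03 and 5.56 CPM, gastrocnemius 22.5, 30.8 and 40.1 and eWAT 45.9, 62.2 and 78.8, without overlap. The log2 fold change of eWAT over gastrocnemius, 0.96 ± 0.27 (edgeR, adjusted p = 0.00315), fell short of 2-fold, and that of liver over eWAT was -4.57 ± 0.35 (adjusted p = 6.38e-11).

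In gastrocnemius H19 was the member that set the tissue apart (chr7:142575529-142578143, minus strand). It had 203, 234 and 959 CPM, against 0 to 1.85 in liver and 0.335 to 2.80 in eWAT, and the log2 fold change of eWAT over gastrocnemius was -8.12 ± 0.52 (edgeR, adjusted p = 4.99e-12). Its partner Igf2 had no count in liver or gastrocnemius. Asb4 had 43.1, 87.0 and 111 CPM in gastrocnemius and at most 1.80 in the other tissues, a log2 fold change of -7.42 ± 0.35 for liver over gastrocnemius (edgeR, adjusted p = 1.98e-14). That fold change rested on only 5 counts of Asb4 in all liver libraries together, against 703 in gastrocnemius, so its size is uncertain. Igf2r (36.7 to 103 CPM), Snrpn (12.5 to 25.9) and Gab1 (17 to 30.1) were also called in gastrocnemius over both other tissues with TMM scaling. With library totals these 3 were no longer called between eWAT and gastrocnemius (log2 fold changes of -0.73, -0.83 and -0.59). H13, a signal peptide peptidase, was lower in gastrocnemius (7.51 to 26.5 CPM) than in liver (63.7 to 88.4) and eWAT (51.1 to 85.4).

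The members that are high in all grown tissues were Gnas, Ube3a and Kcnq1ot1. Gnas had 351 to 415 CPM in liver, 339 to 588 in eWAT and 736 to 872 in gastrocnemius, and was called only between liver and gastrocnemius (log2 fold change -1.07 ± 0.16, edgeR adjusted p = 2.28e-06). Ube3a ranged from 157 to 325 CPM and Kcnq1ot1, the noncoding RNA that lies within Kcnq1, from 128 to 338 over the 18 libraries, and neither was called in any contrast at 2-fold with TMM scaling. At the other end Dlk1, Rian and Magel2 had no count in any of the 3 grown tissues, which at a floor of 3 counts allowed up to 0.502 CPM in the eWAT library of 3512177 counts, the largest after scaling, and 9.95 CPM in the gastrocnemius library of 369772 counts. Meg3 and Igf2 had 1 count each, in eWAT, and Calcr 1 count each in liver and gastrocnemius. The intervals and floors cover counting error only.

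Other members differed less or were low. Zrsr1 had medians of 75.7 CPM in liver, 87.2 in eWAT and 169 in gastrocnemius and was called only between liver and gastrocnemius (log2 fold change -1.22 ± 0.16, edgeR adjusted p = 6.08e-07). Ppp1r9a, at 29.5, 30.4 and 5.28 CPM, and Inpp5f, at 21.8, 14.5 and 7.11, were called lower in gastrocnemius than in both other tissues. Mcts2 was called higher there, at a median of 12.6 CPM against 5.74 in liver and 4.54 in eWAT, and lost both calls with library totals. Airn was called lower in liver (0.524 to 1.46 CPM) than in both other tissues. Impact, a regulator of translation under stress, and Trappc9 were called in no contrast with TMM scaling, but higher in eWAT than in both other tissues with library totals. The 14 members that did not pass the filter were Igf2, Usp29, Calcr, Dlk1, Meg3, Rian, Mirg, Magel2, Mkrn3, Phlda2, Ascl2, Nap1l5, Sfmbt2 and Rasgrf1, and the highest value among them was 6.36 CPM, for Ascl2 in 1 eWAT library. Of the 12 genes of imprint proteins, 6 were tested between tissues. Dnmt1 was called lower in liver than in eWAT (log2 fold change -1.60 ± 0.31) and higher in eWAT than in gastrocnemius (1.41 ± 0.32). Zfp445 was called higher in liver than in eWAT and Setdb1 lower in eWAT than in gastrocnemius. Of the 24 neighbours, 11 were tested, with 9 called between liver and gastrocnemius (4 higher, 5 lower in liver), 2 between liver and eWAT (both lower) and 7 between eWAT and gastrocnemius (3 higher, 4 lower in eWAT).

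**Figure D3:**
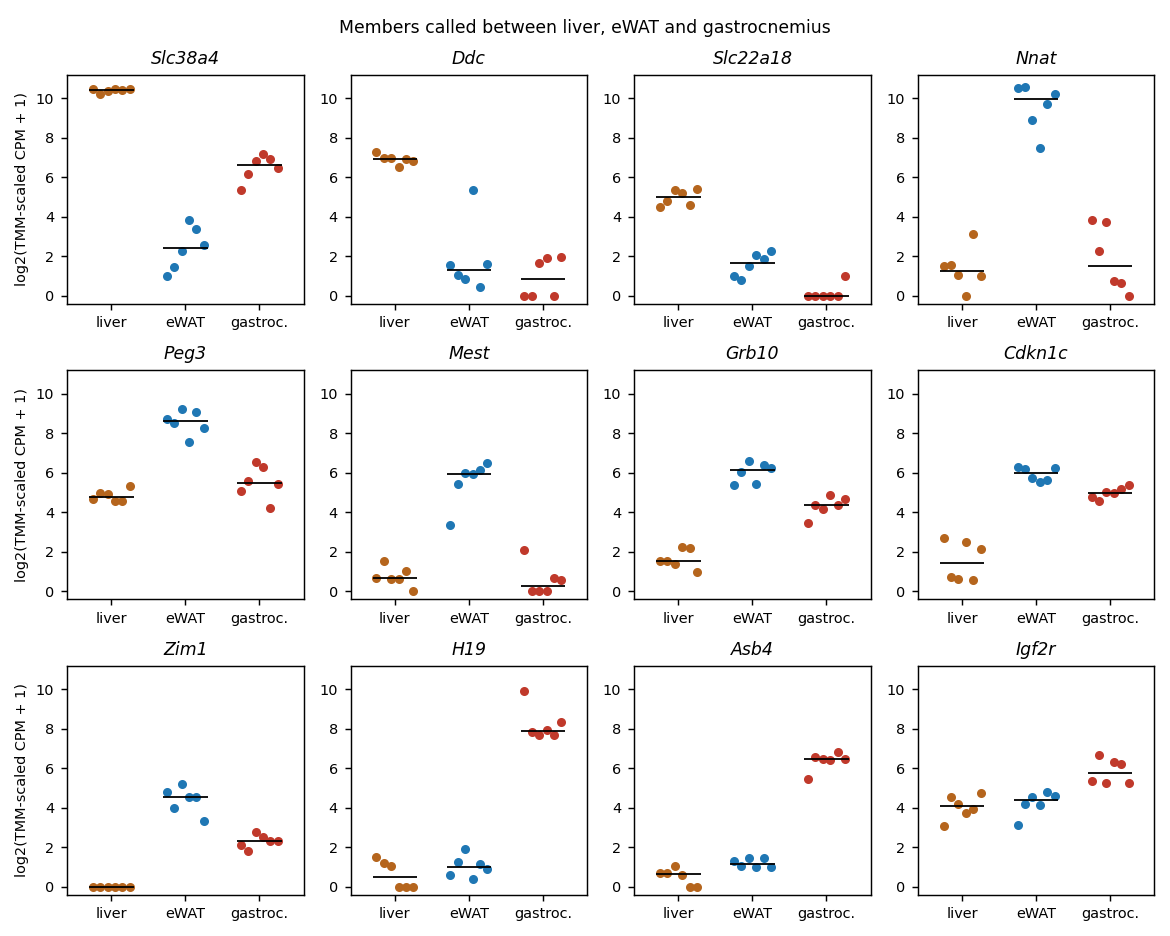
Levels of 12 imprinted genes in liver, eWAT and gastrocnemius as log2 of TMM-scaled CPM plus 1. Each dot is 1 library, ordered by total count from left to right, and the line is the median of 6. Slc38a4, Ddc and Slc22a18 were highest in liver, Nnat, Peg3, Mest, Grb10, Cdkn1c and Zim1 in eWAT, and H19, Asb4 and Igf2r in gastrocnemius, and Ddc reached 40.4 CPM in 1 eWAT library.

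Spread between libraries was taken as the ratio of the highest to the lowest library for members with a median of at least 20 counts. It reached at least 2 for 13 of 26 members in eWAT, 9 of 16 in gastrocnemius, 2 of 13 in liver and 0 of 30 in round spermatids. Over all genes with such a median the same held for 46.9%, 52.6%, 40.0% and 6.48%, so that the share of members with a wide spread was near that of all genes, and lower in liver. The median ratio was 2.06 over the members and 1.95 over all genes in eWAT, and 2.32 and 2.05 in gastrocnemius. The 6 libraries of a tissue mix tolerant and intolerant sons, or both diets, and the part of these groups in the spread was not tested.

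In eWAT the widest ratio was that of Slc38a4, 13.3, from 0.985 CPM (2 counts) to 13.1 CPM (78 counts), and 0.962% of 9358 genes had a ratio as large. Mest followed with 9.52, and 1.46% of genes were as wide. It had 9.36 CPM in the library of 1338149 counts, 41.5 in that of 1744891 and 60.5 to 89.1 in the other 4. Nnat had a ratio of 8.58, reached by 1.70% of genes, but ran in another order. It had 1489 and 1534 CPM in the 2 libraries of fewest counts, 473 in that of 3305967, 179 in that of 3512177 and 843 and 1169 in the remaining ones. Thus the library with the lowest Mest was among the highest in Nnat. Ube3a, with a ratio of 1.28, was steady across the same libraries, as 96.6% of genes varied at least as much. Gnas, with 1.74, was nearer to the median of all genes (1.95), and 63.7% of genes varied at least as much.

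The eWAT library of 3512177 counts stood apart in several members. Ddc had 241 counts there (40.4 CPM) and 2 to 12 counts in the other 5. Slc38a4 was at its highest and Nnat, Peg3 (187 CPM), Plagl1 and Gnas at their lowest. The same library had the lowest sum of adipocyte markers (3560 CPM, against 6053 to 7557 in the other 5) and the highest sum of late spermatid and sperm markers (41.0 CPM, against 0 to 1.48), and their part in these values was not tested. It was the lowest library for 9 of 26 members and for 24.9% of all genes, and the library of 1338149 counts was lowest for 8 members and 25.1% of genes. Without the library of 3512177 counts the log2 fold change of Ddc went from 3.84 to 6.60 for liver over eWAT and from 2.31 to -0.47 for eWAT over gastrocnemius, a contrast in which Ddc was not called.

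**Figure D4:**
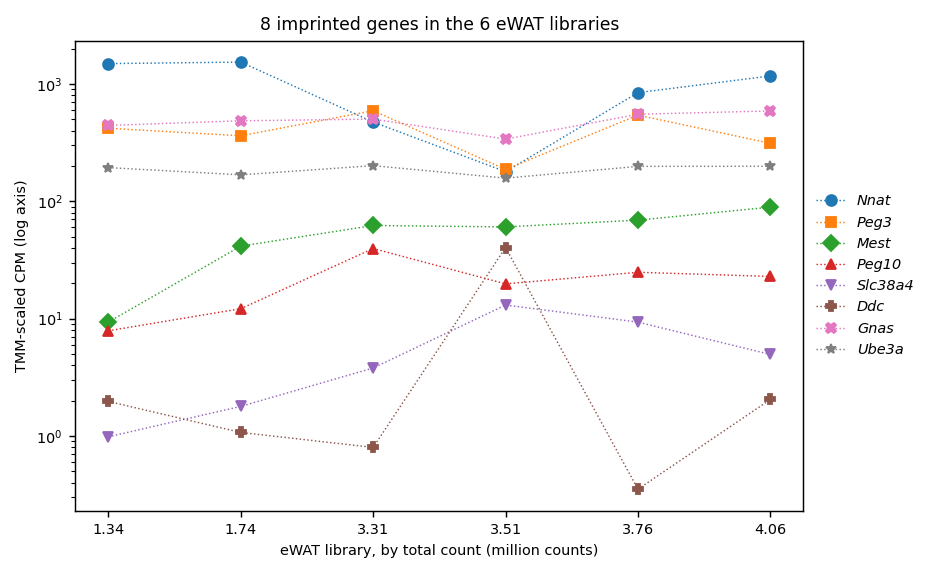
TMM-scaled CPM (log axis) of 8 imprinted genes in the 6 eWAT libraries, named by total count; dotted lines join the points of a gene for reading only. Mest was lowest in the library of 1338149 counts, Nnat was lowest and Ddc highest in that of 3512177 counts, and Gnas and Ube3a stayed within 339 to 588 and 157 to 201 CPM.

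In gastrocnemius Peg13 had the widest ratio, 8.11, from 1 count in the library of 369772 counts. Peg3 had a ratio of 5.28, reached by 5.43% of 4915 genes, with 17.7 CPM in the library of 2217120 counts and 93.6 in that of 1775036. H19 had 959 CPM (289 counts) in the library of 369772 counts and 203 to 328 CPM in the other 5. That library had the lowest sum of skeletal muscle markers (32844 CPM, against 46850 to 78174 in the others). Adipocyte markers summed to 81.4 to 92.9 CPM in 3 gastrocnemius libraries and to 10.8 to 15 in the other 3. Nnat, the fat-marking member, had 13.3, 3.76 and 12.5 CPM in the former 3 and 0 to 0.681 in the latter, and the part of fat in these values was not tested. The former 3 were also the shallowest libraries of the tissue (369772, 935991 and 1775036 counts). There 3 counts equal 9.95, 3.76 and 2.21 CPM, so that the first 2 Nnat values lay at or near this floor.

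In liver Igf2r had the widest ratio, 3.54, with 7.42 to 26.3 CPM, followed by Impact at 2.15 and Slc22a18 at 1.91. Slc38a4, at a ratio of 1.20, and Gnas, at 1.18, were among the steadiest, as 98.7% and 99.2% of 6210 genes varied at least as much. In round spermatids the widest ratios were 1.97 for Mest, 1.96 for Inpp5f and 1.95 for Ddc, each between the library of 28027766 counts at the bottom and that of 20138842 at the top. The 4 highest members there had ratios of 1.14 for Mcts2, 1.26 for Sfmbt2, 1.44 for Asb4 and 1.21 for Trappc9, beside a median of 1.36 over the members and 1.31 over all genes.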

How the data were processed

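RNA was counted in 36 libraries. Per the labels and the study's methods, round spermatids, sperm and morulae were prepared with the Nextera kit (75-bp reads) and the grown tissues with the QuantSeq 3′ kit (50-bp reads). BBDuk trimming, STAR alignment to the GRCm38 genome and featureCounts summarization per gene were done by the authors. Whether counting used strand is not given in the sources used here, so overlapping pairs (Airn and Igf2r, Peg13 and Trappc9, Kcnq1ot1 and Kcnq1, Mcts2 and H13) may share reads. The deposited values are raw counts per gene.

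Members and gene lists were chosen with earlier results of these data known. Symbols were matched through the GRCm38 annotation. Genes passing filterByExpr (minimum count 10) were tested with edgeR 4.0.16 (R 4.3.3), by the quasi-likelihood test with TMM scaling, two-sided, with Benjamini-Hochberg adjustment over all genes tested. Tissue calls also needed a 2-fold change. SE is the log2 fold change divided by the root of F. The authors used NOISeq, which was not run. DESeq2 1.42.0, library totals, totals without mitochondrial genes, no filter and leaving out each library were the alternatives. The fits were tested on simulated counts. No pair of libraries in a group agreed within counting noise (chi-square per degree of freedom at least 3.50). Replicates are separate samples per the labels. The study's methods give 3 mice per diet for round spermatids, which entered no test. Where separate animals or cultures are not stated, p-values measure only the spread between these samples, which may be technical. Depth ran from 369772 to 31056066 counts per library, and the precision of low genes in the shallowest gastrocnemius library is limited by it.

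Genes named singly were, in sperm and morulae, the 3 tested members with the largest and the 3 with the smallest fold change and the 4 with the highest level per kilobase (the latter also in round spermatids), in each grown tissue the 4 most abundant members and those called against both other tissues at a median of at least 20 counts, the 3 widest ratios per tissue of 6 libraries, and Mest, Peg3, Igf2, H19, Dlk1, Meg3, Snrpn, Grb10, Cdkn1c and Gnas. Ddc in eWAT, Zrsr1 and Asb4 among the outlying values and the lowest members were named after their values were seen.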

Additional observations from a re-analysis of the deposited data

Results flagged for a closer look

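Of 85 combinations of a member and a tissue of 6 libraries with a median of at least 20 counts, 4 had a highest or lowest library whose gap to its neighbour exceeded the share of the whole range set by Dixon's 95% critical value, and chance gives about 1 such gap in 20 groups. H19 in gastrocnemius had 959 CPM in the library of 369772 counts, with the next library at 328 CPM. Asb4 had its lowest value, 43.1 CPM, in the same library, with the next at 85.8. Gab1 in gastrocnemius had 30.1 CPM in the library of 935991 counts, with the next at 21.7. Zrsr1 in liver had 61.1 CPM in the library of 2347546 counts, with the next at 73.7.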

How the results depend on the processing

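No paired analysis was possible because the columns carry no replicate number of the labels. In sperm the 0 members at an adjusted p under 0.05 became 1 with DESeq2 and 8 (all lower on HFD) with library totals, which called 37.8% of all genes, and stayed 0 without each library in turn. The 4 members at an unadjusted p under 0.05 became 2 with DESeq2 size factors and 9 with library totals. Of all 8643 genes 1157 and 4499 had such a p there, against 1122 as reported. Without each library the members numbered 1 to 4, beside 617 to 1762 of all genes (9096 to 10289 tested). Grb10 reached 2.44 (adjusted p = 0.0159) in DESeq2. Plagl1 went to -0.73 with library totals, under which the median of all genes moved from -0.07 to -1.82, and to -1.25 without the HFD library of 2994295 counts. In morulae the 0 members at an unadjusted p under 0.05 became 1 with DESeq2, with library totals and with no filter. Of all genes 878 and 851 of 13447 and 1888 of 29785 had such a p in these settings in turn. Without each library the members numbered 0 to 2, beside 642 to 1223 of all genes (14175 to 14389 tested). Phlda2 reversed to -0.42 without the HFD library of 11776603 counts.

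Between tissues, members lower in liver than in eWAT went from 13 to 21 with library totals (49.2% of all genes). Members lower in eWAT than in gastrocnemius went from 7 to 3 with library totals (8.05% of all genes) and to 12 with no minimum fold. With no minimum fold 7318 of all 10851 genes were called in the latter contrast, in either direction. Leaving out each of the 18 libraries gave 12 to 14 members for the former count and 7 to 8 for the latter. Asb4 lost its call for liver over eWAT without the liver library of 2347546 or 2552454 counts, Inpp5f for eWAT over gastrocnemius without the gastrocnemius library of 1803083 counts, and Mcts2 for liver over gastrocnemius without any of 5 libraries. No member called under both the reported and another setting changed direction. DESeq2 did not call Ddc in either liver contrast. Members at 10 CPM or more in sperm went from 11 to 17 with totals of nuclear genes, and members of round spermatids with a ratio of at least 2 from 0 to 3 with library totals. The causes were not tested. Depth limits sperm and the gastrocnemius library of 369772 counts, where 3 counts equal 9.95 CPM.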
